A study of Etheostoma caeruleum with 18 samples.

Results

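The genes described here are the 200 steadiest abundant genes of rainbow darter liver, the abundant genes whose level differed least between 18 fish. They were chosen from 302933 assembled genes by level and spread alone. A gene had to average at least 50 TPM (a gene's share of the transcripts in a library, scaled so that all genes sum to 1000000) and lie outside the 100 most abundant genes, which left 1447 genes. The 200 of these with the lowest SD of log2(TPM + 1) over all 18 fish are the members. Low spread is therefore what chose them, and it is given below as a description.

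Genes whose transcript level hardly varies between individuals are the ones a laboratory looks for as reference genes, against which a responding gene is measured in a quantitative PCR assay. Steady transcripts commonly come from functions that every cell needs, while liver also makes large amounts of a few secreted blood proteins, whose transcripts can take up much of a library. Because TPM is a share, a gene's TPM falls when other genes take more, whether or not its own transcripts became fewer.

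The fish were wild rainbow darters (Etheostoma caeruleum), a small river fish, held for 14 days in water with no venlafaxine (control), with 1 µg/L R-venlafaxine or with 1 µg/L S-venlafaxine, with 6 fish and 1 liver polyA RNA library per fish in each group. Venlafaxine, a drug against depression, blocks the transporters that take serotonin and noradrenaline back into nerve cells. R-venlafaxine and S-venlafaxine are its enantiomers, molecules of opposite handedness. All groups shared the collection river, a 14-day depuration period before exposure and the same feeding. Exposure tanks each held at least 6 fish, and neither the number of tanks per group nor the tank of a given fish is stated. Library names carry a letter, A, B or C, in every group, and its meaning is not given. Except where a block is named, p-values and intervals treat fish as independent. No block used allows for fish of 1 group that shared a tank. A tank difference cannot be told apart from a difference between groups. Age, sex and strain are not given in the labels. The tables do not pair identifiers with gene names, so no function is attached to any gene and the labelled tissue was not checked against marker genes. Library totals ran from 43824871 to 65611447 estimated counts. Fewer cells of a type and less RNA per cell cannot be told apart in such bulk samples.

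The members spanned most of the permitted range of level. Their mean TPM ran from 50.35 to 1625, with a median of 223.8 and quartiles at 90.67 and 655.4, while the other 1247 abundant genes had a median of 102.6. With TPM as deposited, members made up a larger share of the more abundant genes. Of the 664 genes averaging 50 to 100 TPM, 59 were members (8.9%). Of the 116 genes averaging 800 TPM or more, 34 were (29.3%). The median SD of log2(TPM + 1) of all genes in those 2 bands was 0.336 and 0.25. The members' median level depended on the choice. After TMM scaling, which centres libraries on the bulk of their genes, the same rule picked genes with a median of 132.6 TPM. Applied to the 6 controls alone, it picked genes with a median of 128.3 TPM. The median was 190.8 TPM for genes chosen in R-venlafaxine fish and 261.3 TPM for those chosen in S-venlafaxine fish. Together the members held 7.68% to 9.04% of a library. That share averaged 8.25 ± 0.385% in controls, 8.37 ± 0.577% in R-venlafaxine fish and 8.41 ± 0.331% in S-venlafaxine fish (SD, n = 6 each), with overlapping ranges.

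**Figure D1:**
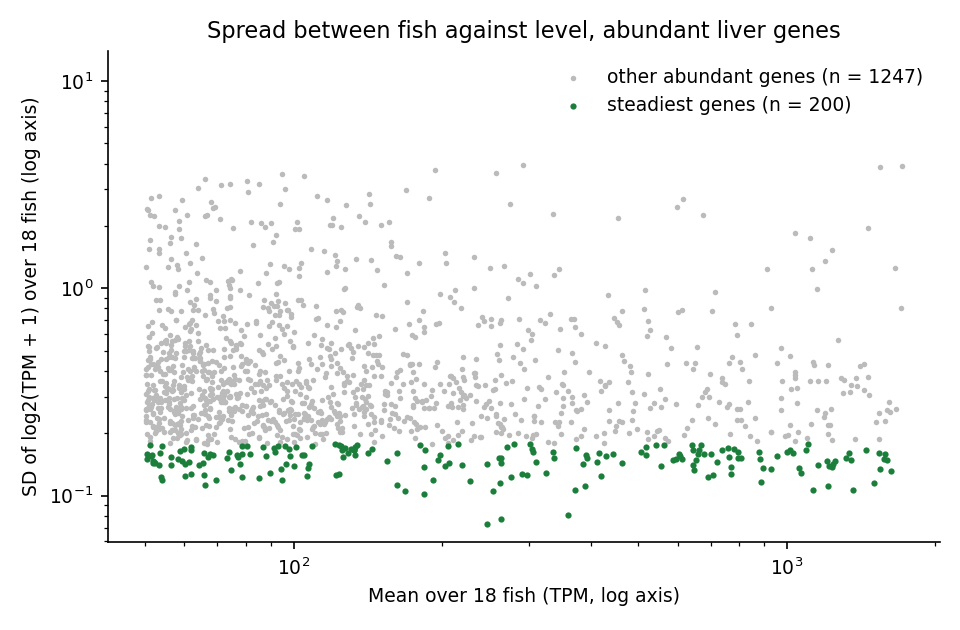
Each point is 1 of 1447 abundant genes, with its mean over 18 fish in TPM on the x axis and the SD of log2(TPM + 1) over the same fish on the y axis, both on log axes. The 200 steadiest genes (green) form the lower edge at an SD of 0.0725 to 0.178, and 3 of them lie clearly below the rest.

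A group of 3 genes stood apart at the low end, with SDs of 0.0725, 0.077 and 0.0803, followed by the fourth at 0.101 and the fifth at 0.105. The steadiest, TRINITY_DN969_c0_g1, ranged from 245.15 through a median of 254.8 to 259.15 TPM in controls. In R-venlafaxine fish its lowest, median and highest values were 229.07, 243.5 and 272.88 TPM. In S-venlafaxine fish they were 224.42, 239.5 and 254.66 TPM. Its highest value over all fish was 1.22 times its lowest and the 3 groups overlapped, with the 6 controls the most tightly packed.

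TRINITY_DN262_c2_g2 came second and had the narrowest range of all 200 members, its highest value being 1.17 times its lowest. Controls were at 283.04, 284.62, 248.96, 282.85, 282.54 and 278.72 TPM, in replicate order. R-venlafaxine fish lay between 246.17 and 266.41 TPM and S-venlafaxine fish between 242.47 and 268.92 TPM. Thus 5 of 6 controls were above all 12 exposed fish, and control 3 lay among them. The log2 difference from control was -0.10 (SE 0.0619) for R-venlafaxine and -0.11 (SE 0.0619) for S-venlafaxine, and neither passed in limma (adjusted p = 0.99993 and 0.99981). TRINITY_DN7124_c0_g1 had group means of 360.7 ± 24.1 (control), 370.3 ± 12.3 (R-venlafaxine) and 348.1 ± 17.5 TPM (S-venlafaxine; SD, n = 6 each). TRINITY_DN4441_c0_g1 ran from 166.33 to 207.95 TPM and TRINITY_DN25513_c0_g1 from 220.97 to 287.47 TPM over all 18 fish, with overlapping groups in both.

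**Figure D2:**
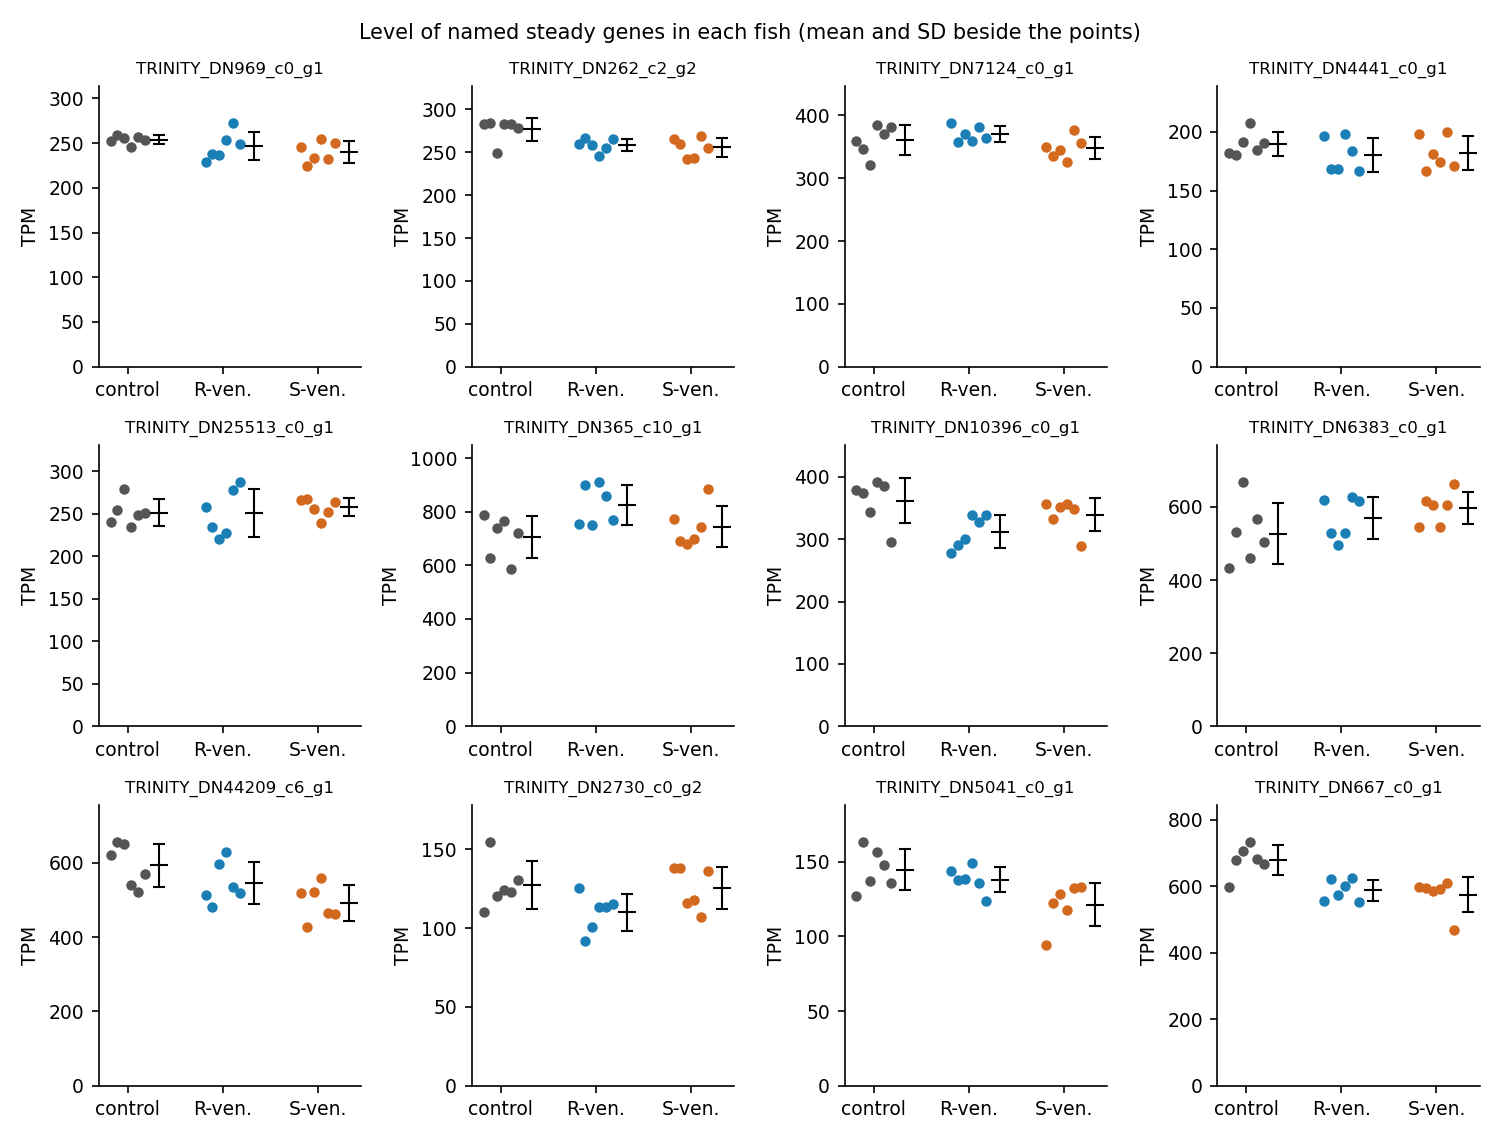
Points give the TPM of 12 members in each fish, with the group mean and SD (n = 6) beside them and axes that start at 0. The first 5 panels hold the members with the lowest SD, the next 6 the members with the most extreme log2 differences, and the last TRINITY_DN667_c0_g1, in which 5 of 6 controls exceed every exposed fish.

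At the other end of the list nothing separates members from non-members. TRINITY_DN1637_c0_g2 and TRINITY_DN468_c1_g1 were the last included, with SDs of 0.1777 and 0.1779. TRINITY_DN13557_c0_g1 and TRINITY_DN480_c0_g1 were the first left out, with SDs of 0.178 and 0.1781. The most abundant member, TRINITY_DN3654_c0_g1, averaged 1625 TPM and ran from 1333.85 to 1855.45 TPM. The least abundant, TRINITY_DN79647_c1_g2, averaged 50.35 TPM and ran from 41.71 to 61.83 TPM. TRINITY_DN366_c0_g1 had the widest spread within groups, an SD of 0.186, and its highest value of 165.29 TPM came from S-venlafaxine 5.

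In plain terms, the highest fish exceeded the lowest by a median of 1.45 times over the members, and by 1.17 to 1.76 times across them. In 140 of 200 members that ratio was under 1.5, and in all 200 it was under 2. Among the 1247 other abundant genes the median ratio was 2.39, and 376 were under 2. The members' median SD was 0.152 in log2, a coefficient of variation of 10.5%, against 0.345 in the other abundant genes. These contrasts follow from how the members were chosen.

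Taking out the group means left the spread almost as it was. The pooled SD within groups had a median of 0.153 over the members, from 0.0609 to 0.186, beside 0.348 in the other abundant genes and 0.344 over the 27405 genes tested. Differences between the 3 group means accounted for a median of 7.92% of a member's variance and a mean of 9.8%. The same measures were 7.46% and 10.29% over all genes tested, and 11.76% is the average that groups with no difference would give. Low total spread, which contains any group difference, chose the members, so no absence of a group effect is read from their values. The median SD among fish of 1 group was 0.148 for control, 0.156 for R-venlafaxine and 0.135 for S-venlafaxine. The widest of the 3 SDs was that of control in 71 members, R-venlafaxine in 83 and S-venlafaxine in 46. These counts were not tested.

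Part of the members' spread over the 18 fish was shared between them. With each gene centred on its mean over all fish, groups included, and set to unit variance, 1 axis carried 27.4% of the members' variation, where an even spread over 17 axes would give 5.88% each and the other abundant genes gave 18.0%. The first axis is the largest by construction, so it lies above an even share even when genes vary independently, and further above in smaller sets. Computed within the 100 more abundant members, above 223.8 TPM on average, a first axis carried 43.9%, and within the 100 less abundant 23.8%. After TMM scaling these values were 44.8% and 31.6%, with 32.1% for all 200 members. The median member lay furthest below its own mean in S-venlafaxine 4, by -0.11 in log2, and in R-venlafaxine 3, by -0.11. It lay furthest above in R-venlafaxine 6, by 0.12, and in R-venlafaxine 5, by 0.10. Low and high libraries occurred within the same exposure group, and the 3 groups overlapped.

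The share of the library taken by the 100 most abundant genes differed between these libraries. It was 46.0% in S-venlafaxine 4 and 45.5% in R-venlafaxine 3, against 44.1% in R-venlafaxine 6 and 41.8% in R-venlafaxine 5. By median member the order was not the same throughout. Control 1 had the highest share, 48.4%, with a median member only -0.05 from its mean. S-venlafaxine 2 and 3, at 42.7% and 42.6%, had median members at -0.0023 and 0.0021. The sign of an axis is arbitrary, and here it was set so that control 1 was negative. Of the 200 members, 149 had the same sign on the first axis of all members. R-venlafaxine 5 lay highest on it, at 0.37, and control 1 lowest, at -0.38. Next came R-venlafaxine 3 at -0.33, S-venlafaxine 4 at -0.31 and R-venlafaxine 2, with a share of 47.4%, at -0.27. These libraries also had the highest shares. Among the other libraries the order differed: control 3, with a share of 44.96%, lay at 0.18, and R-venlafaxine 6 lay at 0.34. The part of the 100 most abundant genes' share in the members' deviations was not tested. The direction of a library's deviation also depended on the scale. TMM scaling moves all genes of a library by 1 factor, here from 0.853 to 1.13, and after it the median member in S-venlafaxine 4 lay 0.12 above its mean. In R-venlafaxine 2 the median member went from -0.09 to 0.13. TMM scaling raised the members' median SD from 0.152 to 0.159, but the members were chosen for low SD before scaling, so a rise is built in. The 200 genes that the same rule picks after scaling had a median SD of 0.148, and 65.0% of them were members.

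**Figure D3:**
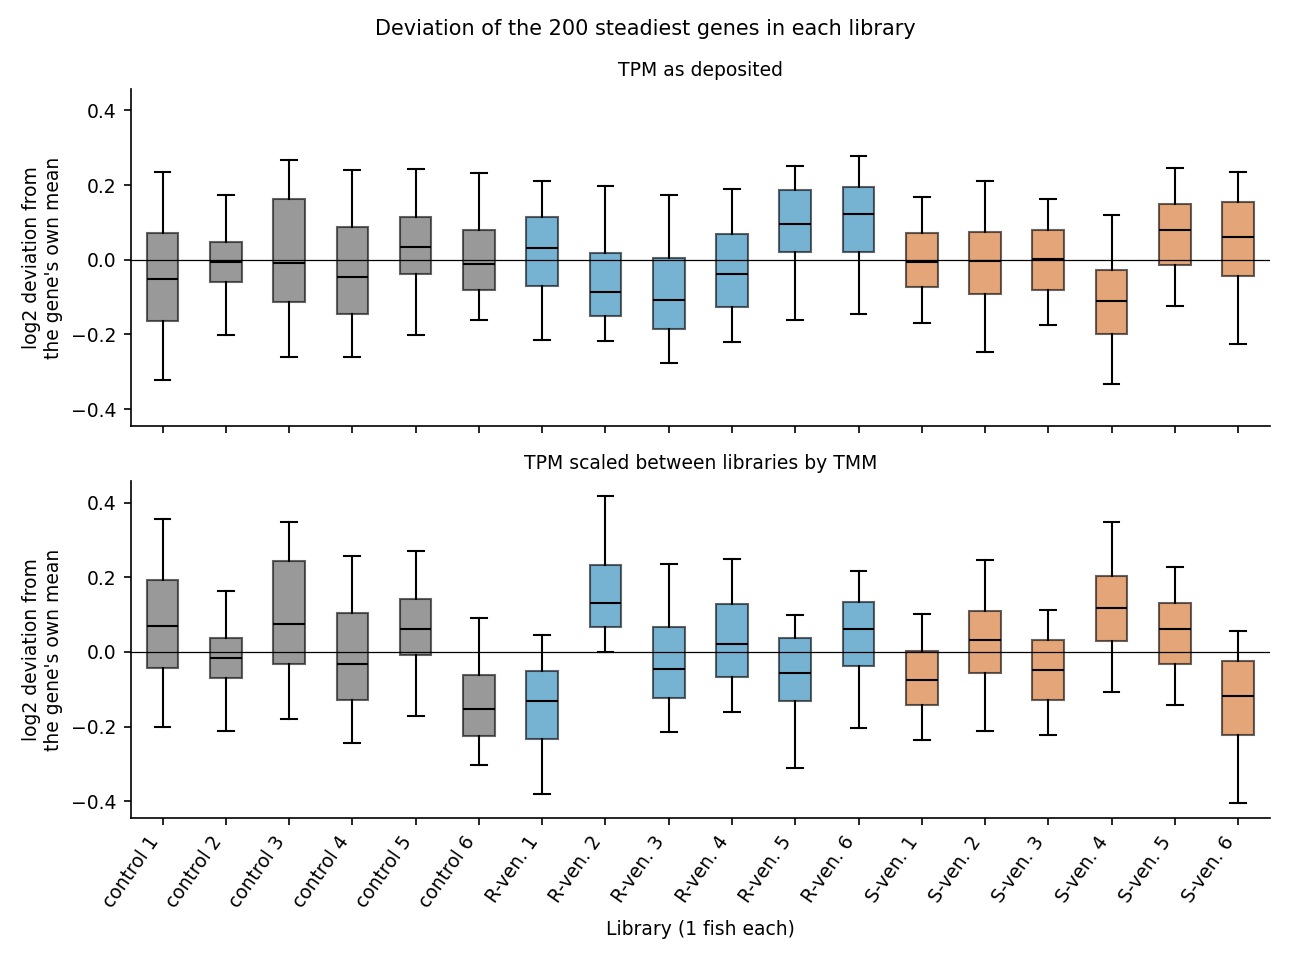
Boxes show the log2 deviation of the 200 members from their own means in each of 18 libraries (median, quartiles, and whiskers from the 5th to the 95th percentile), with control in grey, R-venlafaxine in blue and S-venlafaxine in orange. With TPM as deposited (top) the medians run from -0.11 to 0.12, and after TMM scaling (bottom) from -0.15 to 0.13 with a different order of libraries.

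Single fish also differed in how many members they pulled away. Control 3 was the furthest library from the mean for 27 members, S-venlafaxine 4 for 25 and control 1 for 23, together 75 of 200, while S-venlafaxine 1 was the furthest for 3. In control 3 the more and the less abundant members moved apart, the former lying at a median of 0.14 from their means and the latter at -0.08. The SD of the members' deviations was 0.176 in control 3 and 0.108 in S-venlafaxine 1.

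Whether steadiness carries over to a fish that played no part in the choice was read by choosing 200 genes on 17 libraries and measuring the 18th, for each library in turn. The chosen genes deviated from the mean of the other 17 by a median of 0.119 in log2 (median of 18 libraries), from 0.0572 in control 2 to 0.172 in control 3. The remaining abundant genes, 1234 to 1263 by the same 17 libraries, deviated by 0.213 to 0.354. The steady genes were the closer in 18 of 18 libraries. In some libraries the chosen genes lay mostly to 1 side. With its sign kept, the median deviation was -0.150 in S-venlafaxine 4 and 0.136 in R-venlafaxine 6, beside 0.159 and 0.151 without sign. In control 3 it was -0.013, beside 0.172. With genes chosen and read after TMM scaling, the median without sign over the 18 libraries was 0.109. Of 200 chosen genes, 164 (in S-venlafaxine 4) to 198 (in S-venlafaxine 1) lay within 1.25-fold of the mean of the other fish. All 200 lay within 2-fold in 17 libraries and 199 did in R-venlafaxine 1. The gene outside was TRINITY_DN1688_c1_g1, at 324.33 TPM in that fish and 584.93 to 888.39 TPM in the other 17, which is not a member.

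**Figure D4:**
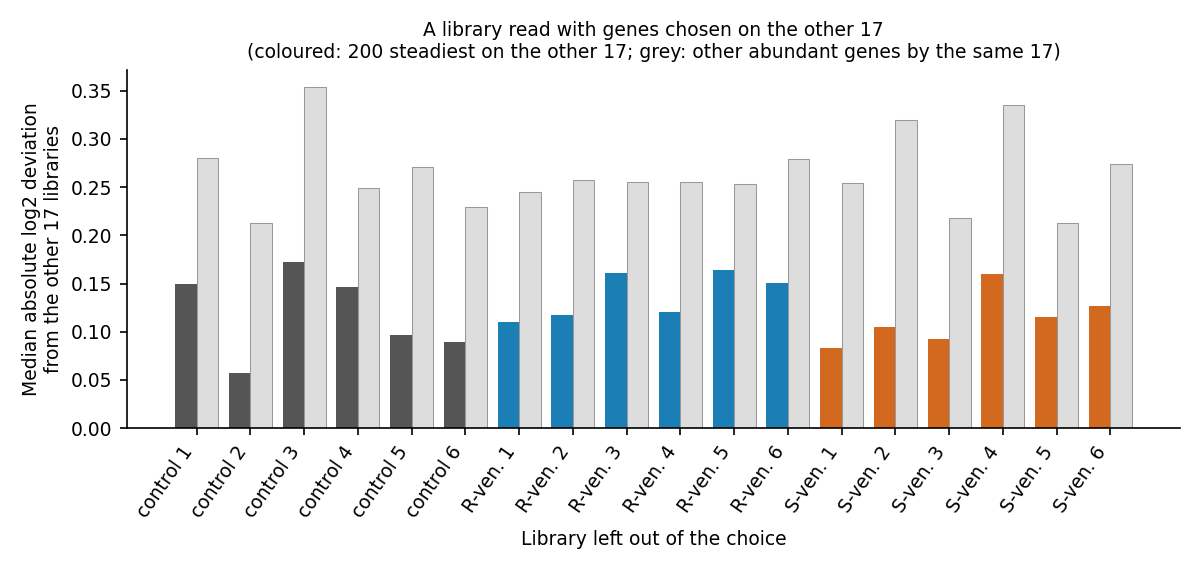
Bars give the median absolute log2 deviation of 1 library from the mean of the other 17, for the 200 genes steadiest in those 17 (coloured by group) and for the other abundant genes (grey), with the y axis from 0. The coloured bar is the shorter in 18 of 18 libraries, from 0.0572 to 0.172 against 0.213 to 0.354.

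The first comparison asks whether R-venlafaxine moved any of these genes. Under R-venlafaxine no member passed the threshold against control: limma called 0 of 200 members at an adjusted p under 0.05 (lowest adjusted p = 0.99993), beside 0.0% of the 27405 genes tested. At an unadjusted p under 0.05 there were 3 members, 1 higher and 2 lower, which is 1.5% of them against 3.74% of all genes tested. Without control 2 or without control 5 there was 1, and without control 1 or without R-venlafaxine 5 there were 4. In 0 members did the 2 groups fail to overlap, against 0.15% of all genes. As the members were chosen for low total spread, which contains any group difference, nothing is read from these shares. edgeR also called 0 of 200 members, beside 0.0% of its 59733 genes, with 1 member at an unadjusted p under 0.05 against 3.24% of genes. DESeq2 called 0 members beside 0.117% of genes, with 2 members at an unadjusted p under 0.05 against 4.54%. Members' log2 differences ran from -0.21 to 0.23, with a median of 0.02, equal to the median of 0.02 over all genes tested.

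The highest of them was TRINITY_DN365_c10_g1. Its lowest, median and highest values were 587.18, 730.6 and 787.34 TPM in controls and 751.87, 812.8 and 910.26 TPM in R-venlafaxine fish. Of the controls, 2 lay within the range of the exposed fish. The log2 difference was 0.23 (SE 0.093), with a 95% interval of 0.03 to 0.42 and an adjusted p of 0.99993 in limma. The lowest was TRINITY_DN10396_c0_g1, with 361.6 ± 36.2 TPM as the control mean and 312.5 ± 26.1 TPM as the R-venlafaxine mean (SD, n = 6 for both). Its log2 difference was -0.21 (SE 0.0874), with an interval of -0.39 to -0.02 and the same adjusted p, and the groups overlapped.

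S-venlafaxine against control gave a like picture. limma called 0 of 200 members (lowest adjusted p = 0.99981), beside 0.0% of the genes tested, and 4 members, all lower, had an unadjusted p under 0.05, which is 2.0% against 3.95% of all genes tested. Without control 3 there were 9, and without control 4, S-venlafaxine 1 or S-venlafaxine 4 there were 3. The 2 groups overlapped in every one of the 200 members, while they did not in 0.193% of all genes tested. Here too the choice by low total spread shaped the members' shares, and nothing is read from them. edgeR called 0 members beside 0.00167% of genes, with 4 members at an unadjusted p under 0.05 against 3.23%. DESeq2 called 0 beside 0.109%, with 8 at an unadjusted p under 0.05 against 4.54%. The members' log2 differences ran from -0.27 to 0.19, with a median of 0.01. TRINITY_DN44209_c6_g1 was the lowest, its mean of 492.2 ± 48.6 TPM under S-venlafaxine standing against 593.1 ± 57.7 TPM in controls (SD, n = 6 for both), a log2 difference of -0.27 (SE 0.0917, interval -0.46 to -0.08). R-venlafaxine fish were at 545.3 ± 56.1 TPM (SD, n = 6), and the ranges of all 3 groups overlapped. The interval does not allow for picking this gene as the lowest of 200. TRINITY_DN6383_c0_g1 was the highest, its mean of 597.0 ± 44.9 TPM under S-venlafaxine standing against 527.1 ± 84.0 TPM in controls (SD, n = 6 for both), a log2 difference of 0.19 (interval -0.03 to 0.41).

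One member, singled out after its values were seen, had more of its variance between the groups than any other, 52.5%. TRINITY_DN667_c0_g1 was at 599.1, 680.44, 706.16, 734.67, 683.23 and 667.95 TPM in controls, in replicate order. It lay between 552.92 and 624.45 TPM in R-venlafaxine fish and between 468.32 and 610.4 TPM in S-venlafaxine fish. In 5 of 6 controls the level was above that of all 12 exposed fish, and control 1 lay among the latter. The log2 difference was -0.20 (SE 0.0773, interval -0.37 to -0.04) for R-venlafaxine and -0.24 (SE 0.0773, interval -0.40 to -0.08) for S-venlafaxine, with adjusted p of 0.99993 and 0.99981 in limma. Both comparisons use the same 6 controls. Between the enantiomers its difference was -0.04, with an interval of -0.20 to 0.13.

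The enantiomers, at the same nominal concentration and time and differing only in handedness, were compared directly in each of the 200 members. limma called 0 of 200 (lowest adjusted p = 0.9999), beside 0.0% of the genes tested, and 0 members had an unadjusted p under 0.05, against 3.56% of all genes. Without S-venlafaxine 5 there were 3 such members, and 1 or 2 on leaving out any of 6 other fish. In 0 members did the 2 groups fail to overlap, against 0.113% of all genes. These shares too are shaped by the choice by low total spread, and nothing is read from them. edgeR called 0 beside 0.00167%, with 1 member at an unadjusted p under 0.05 against 3.45%. DESeq2 called 0 beside 0.124%, with 3 at an unadjusted p under 0.05 against 4.7%. The differences ran from -0.19 in TRINITY_DN5041_c0_g1 to 0.19 in TRINITY_DN2730_c0_g2. The first was at 138.1 ± 8.45 TPM after R-venlafaxine and 121.3 ± 14.6 TPM after S-venlafaxine, its lowest value of 94.12 TPM coming from S-venlafaxine 1, without which the log2 difference was -0.12. The second was at 110.1 ± 11.9 TPM and 125.5 ± 13.5 TPM (SD, n = 6 each). Their 95% intervals, -0.39 to 0.01 and -0.03 to 0.40, include 0.

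How small a difference these genes exclude was read from the 95% interval of each log2 difference, taking for each gene the bound further from 0 as its limit. A true difference beyond that limit lies outside the interval. The median limit of the members was 0.26 in log2 (1.20-fold) for R-venlafaxine against control, 0.27 (1.21-fold) for S-venlafaxine against control and 0.26 (1.19-fold) between the enantiomers. The other abundant genes had median limits of 0.56, 0.56 and 0.54 (1.48-, 1.47- and 1.46-fold). No member had its interval within 1.1-fold in any comparison. Within 1.25-fold there were 173, 163 and 175 members, and within 1.5-fold all 200 in each. The widest limits were 1.34-fold, 1.38-fold and 1.32-fold. After TMM scaling the members' widest limits were 1.42-, 1.47- and 1.35-fold, with 160, 150 and 158 members within 1.25-fold. The members were chosen before scaling. The 200 genes chosen after it had widest limits of 1.34-, 1.32- and 1.32-fold, with 181, 172 and 182 within 1.25-fold.

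Each of these intervals stands alone. With the level of each raised by a Bonferroni adjustment over 600 intervals, the members' median limits were 1.47-, 1.48- and 1.47-fold and the widest 1.66-, 1.67- and 1.63-fold. Neither kind of interval allows for the choice of members by low spread in the same fish. limma draws each gene's variance towards that of genes of like level, which widened the members' intervals: the median SE was 0.0973, and 0.0884 from each gene's own spread.

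Because the members' own fish set both their choice and their intervals, 200 genes were also chosen by the same rule in the 6 fish of the group outside each comparison, and their intervals were taken from a fit to the other 12 fish alone. These limits were wider, with medians of 0.31, 0.35 and 0.31 in log2, against 0.27, 0.28 and 0.27 for the members in the same 12-fish fits. The 200 genes steadiest in S-venlafaxine fish, 68.0% of them members, had a median limit of 1.24-fold for R-venlafaxine against control, and 113 were within 1.25-fold and 192 within 1.5-fold. Those steadiest in R-venlafaxine fish, 51.0% of them members, had a median limit of 1.27-fold for S-venlafaxine against control, with 79 within 1.25-fold and 193 within 1.5-fold. Those steadiest in controls, 60.0% of them members, had a median limit of 1.24-fold between the enantiomers, with 115 within 1.25-fold and 191 within 1.5-fold.

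The widest limits of these lists were 3.86-, 1.64- and 3.53-fold. With the adjustment over 600 intervals their median limits were 1.62-, 1.71- and 1.64-fold and their widest 23.6-, 3.05- and 17.5-fold, and 176, 164 and 165 of 200 genes were within 2-fold. limma called 0 of 200 genes in each comparison, beside 0.0% of the genes tested. In the R-venlafaxine comparison with control 3 genes had an unadjusted p under 0.05, which is 1.5% against 3.84% of all genes. In the S-venlafaxine comparison with control 6 had, which is 3.0% against 4.04%, and between the enantiomers 0 had, against 3.59%.

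**Figure D5:**
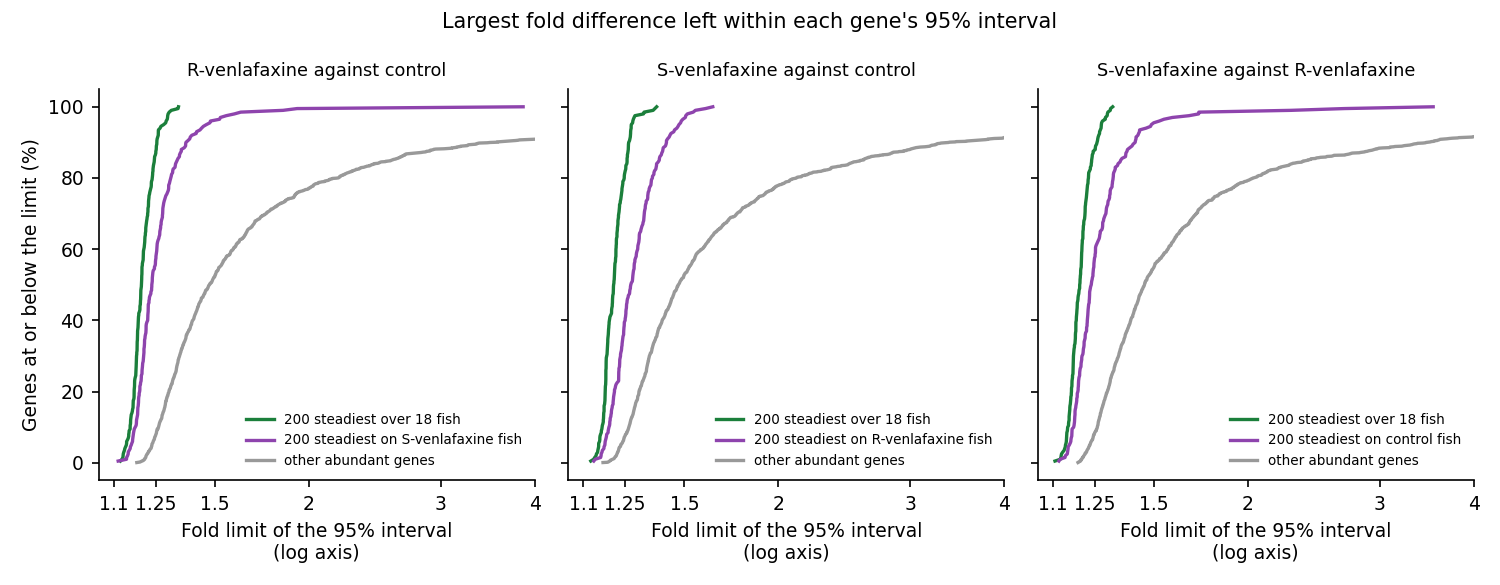
Curves give the percentage of genes whose 95% interval lies within the fold shown on the log x axis, for the 200 members (green), the 200 genes steadiest in the group outside the comparison, fitted on the 12 fish compared (purple), and the other abundant genes (grey, drawn to 4-fold). With TPM as deposited, all members lie within 1.38-fold, while the purple curves reach 3.86-, 1.64- and 3.53-fold.

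The identifiers carry 1 more feature that the choice did not use. An assembly groups its genes into components that share sequence, and reads can be divided among the genes of 1 component. The 200 members came from 199 components, with TRINITY_DN1572_c2_g1 and TRINITY_DN1572_c2_g2 from the same one. In 109 members (54.5%) the gene was the only one of its component, close to the 52.4% of the other abundant genes and below the 72.6% of all assembled genes. The 91 members with partners held a median of 98.8% of their component's TPM. Their median SD was 0.155 alone and 0.152 when the component was summed, with the sum more variable in 33 of 91. The 79 partners that averaged at least 1 TPM had a median SD of 0.314 at a median level of 6.23 TPM.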

How the data were processed

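Trimmomatic 0.36, Bowtie2 2.2.7 and RSEM 1.3.1 are named in the submitters' processing notes, without their settings. The authors deposited TPM rounded to 0.01 and, separately, estimated counts, 1 column per library. Each deposited estimated count, put on the scale of TPM by the sum of its column, equalled the TPM within 0.0055 for 99.977% of values. Apart from the column totals, both tables therefore hold nearly the same information. Which of them was derived from the other is not stated. A count is thus not taken as a number of reads, and the counting error behind a value is unknown. TPM was therefore tested on a log scale: limma 3.58.1 (trend and robust estimation, R 4.3.3) on log2(TPM + 1) of the 27405 genes averaging at least 1 TPM, 1 fit to all 18 libraries, two-sided, Benjamini-Hochberg adjustment over all genes tested, called under 0.05. Fold limits are on the log2(TPM + 1) scale. Rounded estimated counts went to edgeR 4.0.16 (quasi-likelihood, TMM) and DESeq2 1.42.0 as alternatives on 59733 genes kept by filterByExpr. The fits were also run on simulated data with independent noise in each gene. Those runs do not show how the fits perform where deviations are shared between genes, as here. Tables and plots were made in Python 3.11.15 with pandas 2.3.3 and matplotlib 3.10.9. Named genes are the 5 with the lowest SD, the 2 on each side of the threshold, the extremes of level, within-group SD and log2 difference, and TRINITY_DN667_c0_g1. The members and lists were chosen with earlier results of these data known.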

Additional observations from a re-analysis of the deposited data

Results flagged for a closer look

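The named genes' TPM and 4 measures of each library's members, taken group by group, gave 69 sets of 6 values. They were screened for 1 fish far from the other 5, and 4 sets had one. Chance gives about 1 in 20 for sets picked without sight of their values. Several of these genes were named for extremes in the same values, so that rate does not apply to them. TRINITY_DN262_c2_g2 had 248.96 TPM in control 3 and at least 278.72 TPM in the other controls. TRINITY_DN366_c0_g1 had 165.29 TPM in S-venlafaxine 5 and at most 124.71 TPM in the others of its group. S-venlafaxine 6 was low in TRINITY_DN10396_c0_g1, at 288.99 TPM against at least 332.69 TPM, and in TRINITY_DN667_c0_g1, at 468.32 TPM against at least 586.6 TPM. Without S-venlafaxine 6 the log2 difference of TRINITY_DN667_c0_g1 for S-venlafaxine against control was -0.18. Over all members, 39 of 600 sets had one (6.5%), and it was control 3 in 12 of the 39, S-venlafaxine 4 in 5 and each other library in at most 3. The rate of 1 in 20 does not apply to these sets either, as the members were chosen for low SD in the same values.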

How the results depend on the processing

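Limma, edgeR and DESeq2 called 0 members in each comparison under every alternative run. The median limits and the median SD moved by less than their jackknife errors (0.0365, 0.0251 and 0.0328 in log2 for the limits) with 7 exceptions, whose cause was not tested. These errors are computed from the values with 1 library left out. Staying within them therefore says nothing about leaving out 1 library. With genes chosen in the group outside a comparison and the fit run on the other 12 fish, an alternative added after seeing the data, the limits were 0.3061, 0.3484 and 0.3075. For S-venlafaxine against control the limit rose from 0.272 to 0.3188 with genes chosen in R-venlafaxine fish and all 18 fish fitted, and to 0.3173 on leaving out control 1, control 3 and S-venlafaxine 4 together, an alternative chosen after seeing the data. The members' median SD, 0.1516, was 0.1413 with a minimum of 20 TPM and 0.1617 with 100 TPM, lists of which 60.0% and 70.5% were members. Leaving out 1 library gave limits of 0.2567 to 0.2873, 0.272 to 0.2904 and 0.2492 to 0.2792, 0 calls, and a median SD of 0.1472 to 0.1542. Without moderation of the variance 5, 8 and 1 members had an unadjusted p under 0.05, against 3, 4 and 0. With the replicate number as a replicate block, the limits were 0.2649, 0.2769 and 0.261 with 0 calls. With the letter of the library name as the block they were 0.2548, 0.271 and 0.2517, also with 0 calls. Each block took a number or letter as the same in every group. Neither allows for fish of 1 group that shared a tank, so shared tanks were not examined. Same-numbered libraries correlated at -0.138 to 0.17, which did not meet the criterion for pairing, and 6 of 18 libraries correlated best with their own number. The split of members into higher and lower was 120 and 80, 106 and 94, and 92 and 108 in the 3 comparisons, but 99 and 101, 90 and 110, and 91 and 109 after TMM scaling, and 102 and 98, 72 and 128, and 65 and 135 in edgeR, and 93 and 107, 76 and 124, and 76 and 124 in DESeq2, so no direction is drawn from it. Depth in reads is unknown.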
